A study of Mus musculus with 24 samples.

Results

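MILR1, CD200R1, MME, CR2 and SYK are 5 genes of immune cell recognition and signalling, taken from the 14884 genes that the array's annotation named by a single symbol. They were chosen by their log2 levels with and without pomalidomide in earlier results from these same arrays, and listed by symbol. Each was read from 1 probe set, and none had a second one to choose from. MILR1 encodes an inhibitory immunoglobulin-like receptor of mast cells and other myeloid cells. CD200R1 encodes the inhibitory receptor for CD200, found mainly on myeloid cells. MME encodes CD10 or neprilysin, a zinc peptidase on the surface of early and germinal centre B cells, neutrophils and several epithelia. CR2 encodes CD21, the receptor of mature B cells and follicular dendritic cells for complement fragments. SYK encodes the cytoplasmic tyrosine kinase that couples the B-cell receptor and many Fc and myeloid receptors to their downstream pathways.

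As background, activating and inhibitory receptors of immune cells can act on the same kinase cascade from opposite sides. MME, a peptidase, is not such a receptor. Antigen and Fc receptors carry tyrosine motifs (ITAMs), whose phosphorylation by LYN and related kinases recruits SYK. CR2 acts in a membrane complex that includes CD81 and IFITM1 and lowers the threshold of B-cell receptor signalling. MILR1 carries inhibitory motifs (ITIMs) that recruit phosphatases, whereas CD200R1 has none and acts through DOK adaptors. Plasma cells, from which myeloma arises, normally lose much of the B-cell surface programme.

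The samples were tumours of MM.1S, an established human myeloma line, grown under the skin of immunodeficient CB17-SCID mice and profiled on human expression arrays. Once tumours could be felt, mice received the vehicle PBS (control) or 1, 2 or all 3 of the following drugs by intraperitoneal injection for 2 days. Filanesib (ARRY-520), an inhibitor of the mitotic kinesin KIF11, was given at 10 mg/kg. Dexamethasone, a glucocorticoid, was given at 0.5 mg/kg. Pomalidomide, which turns the ubiquitin ligase subunit cereblon against the Ikaros family factors IKZF1 and IKZF3, was given at 8 mg/kg. Every combination of the 3 drugs was sampled, which makes 8 groups of 3 arrays, and 12 arrays with each drug against 12 without it. The model has limits: all tumours come from 1 cell line, the host lacks mature B and T lymphocytes of its own, and RNA came from whole tumours, in which fewer cells of a type and less RNA per cell cannot be told apart. Whether each array is a separate mouse is not in the labels, and any p-value covers only array-to-array spread, which may be technical.

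Levels are log2 values with no true zero, and spanned 1.26 to 13.6 over all probe sets, with array medians of 3.65 to 3.73. The mean of 6 measured plasma cell markers lay between 9.92 and 10.28 in every array, near the top of that scale. The lists of macrophage, neutrophil, mast cell and basophil, mature B-cell, T and NK cell, and endothelial and fibroblast markers each averaged between 2.86 and 4.49. Mouse is the organism given in the labels, but probes were designed for human transcripts, so mouse host cells could be seen only through cross-hybridisation. Arrays of pomalidomide alone deviated most from their group means over all genes, with residual SDs of 0.288 for replicate 3, 0.232 for replicate 1 and 0.193 for replicate 2, against at most 0.18 in the other 21 arrays.

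Of the receptors, MILR1 was the gene with the widest separation. In the 3 control arrays its log2 level was 5.16, 4.40 and 5.29. With filanesib it was 4.74, 5.18 and 4.91, with dexamethasone 4.91, 4.59 and 4.88, and with both of these 4.49, 4.81 and 4.59. All 12 arrays without pomalidomide thus lay in one low band. With pomalidomide alone the level was 7.17, 5.52 and 7.65, and with filanesib and pomalidomide 7.04, 5.81 and 6.74. With pomalidomide and dexamethasone it was 7.16, 6.26 and 6.18, and in the triple combination 6.94, 6.75 and 5.89. The lowest of the 12 pomalidomide arrays, 5.52, was still above the highest of the 12 others, 5.29. Over all genes, 0.107% (16) separated the 12 arrays from the other 12 without overlap. Since the gene was chosen with its pomalidomide values known, this separation is a description.

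On average over the 4 drug backgrounds, MILR1 was 1.76 ± 0.20 higher with pomalidomide (log2, SE, 12 arrays against 12), or 3.39-fold, the second highest value (rank 2) among 14884 genes. The difference was 1.83 beside no other drug, 1.74 beside dexamethasone, 1.58 beside filanesib and 1.90 beside both, each with an SE of 0.395. Groups with and without pomalidomide did not overlap in any of the 4 backgrounds, a pattern in 1 direction that 0.41% of genes (61) showed. The 4 pomalidomide groups, with means from 6.53 to 6.78, overlapped one another in range. So did the 4 groups without it, with means from 4.63 to 4.95.

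**Figure D1:**
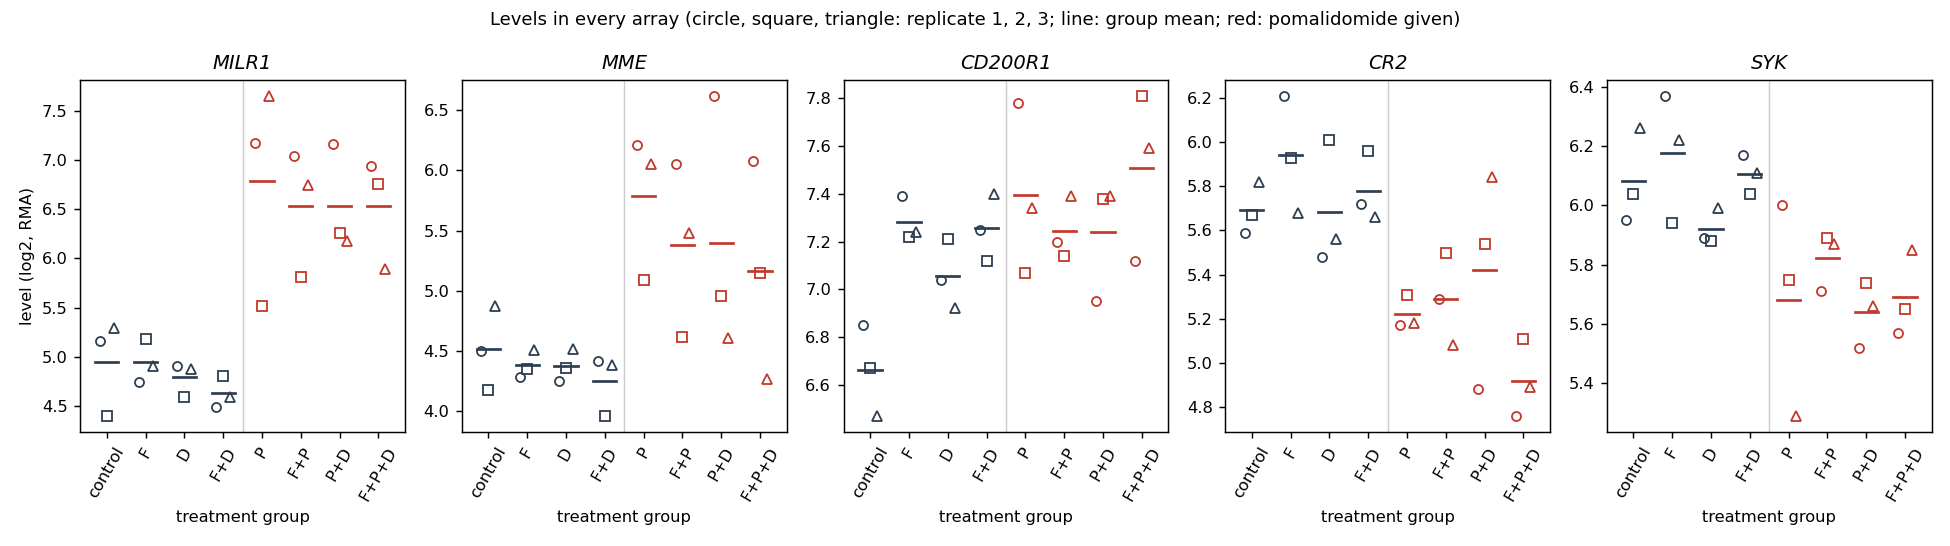
Log2 level of each gene in every array, by treatment group (F filanesib, D dexamethasone, P pomalidomide; groups with pomalidomide in red; symbols mark replicates 1 to 3; lines are group means of 3 arrays; each panel has its own axis range). MILR1 separates completely at 5.29 and 5.52, MME, CR2 and SYK overlap in a few arrays, and CD200R1 is lowest in the controls, at 6.47 to 6.85, with all other arrays above.

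MME, the CD10 peptidase, was also higher with pomalidomide in all 4 backgrounds, but unevenly between arrays. Its log2 level was 4.50, 4.18 and 4.87 in controls, 4.28, 4.35 and 4.51 with filanesib, 4.25, 4.36 and 4.52 with dexamethasone, and 4.42, 3.96 and 4.38 with both. With pomalidomide alone it was 6.21, 5.09 and 6.05, and with filanesib and pomalidomide 6.05, 4.62 and 5.48. With pomalidomide and dexamethasone it was 6.62, 4.96 and 4.61, and in the triple combination 6.08, 5.15 and 4.27. Of the 12 pomalidomide arrays, 9 were above the highest array without the drug (4.87). The 3 that were not are replicate 2 of filanesib and pomalidomide and replicate 3 of both groups that combine pomalidomide with dexamethasone.

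The average difference of MME was 1.05 ± 0.21 (2.07-fold, rank 13 from the top). By background it was 1.26 beside no other drug, 1.02 beside dexamethasone, 1.004 beside filanesib and 0.91 beside both, with an SE of 0.428. In 3 of the 4 backgrounds the groups did not overlap. For this count, and those of the genes below, the share over all genes was not worked out. Such counts are descriptions only. The array numbered 1 had the highest MME level in each of the 4 pomalidomide groups. Among arrays numbered 1 the difference was 1.88 (4 arrays against 4), among those numbered 2 it was 0.743, and among those numbered 3 it was 0.531. MILR1 and CR2 also differed most among arrays numbered 1, by 2.25 and -0.727. Their values were 1.34 and -0.528 for number 2, and 1.7 and -0.433 for number 3. CD200R1 and SYK differed most among arrays numbered 3, by 0.423 and -0.479. Over all genes the titles' numbers did not pair arrays, but that measure does not speak for single genes such as MME. Pairing of single genes was not tested.

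CR2, the complement receptor CD21, was lower with pomalidomide. Its log2 level was 5.59, 5.67 and 5.82 in controls, 6.21, 5.93 and 5.68 with filanesib, 5.48, 6.01 and 5.56 with dexamethasone, and 5.72, 5.96 and 5.66 with both. With pomalidomide alone it was 5.17, 5.31 and 5.18, and with filanesib and pomalidomide 5.29, 5.50 and 5.08. With pomalidomide and dexamethasone it was 4.88, 5.54 and 5.84, and in the triple combination 4.76, 5.11 and 4.89. Pomalidomide with dexamethasone was the group that overlapped its partner: 2 of its 3 arrays lay among those without pomalidomide.

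Averaged over backgrounds, CR2 differed by -0.56 ± 0.09 (1.48-fold lower, the 24th largest fall of 14884 genes). The difference was -0.47 beside no other drug, -0.26 beside dexamethasone, -0.65 beside filanesib and -0.87 beside both, with an SE of 0.188, and 3 of 4 backgrounds were without overlap. Of the 12 pomalidomide arrays, 9 were below every array without the drug (lowest 5.48). The triple combination had the lowest group mean, 4.92 ± 0.18 (SD, n = 3), and did not overlap the next group in order, pomalidomide alone at 5.22 ± 0.08 (SD, n = 3).

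SYK, the kinase, had the narrowest groups of the 5 genes and a smaller difference than MILR1, MME and CR2. Its log2 level was 5.95, 6.04 and 6.26 in controls, 6.37, 5.94 and 6.22 with filanesib, 5.89, 5.88 and 5.99 with dexamethasone, and 6.17, 6.04 and 6.11 with both. With pomalidomide alone it was 6.0, 5.75 and 5.29, and with filanesib and pomalidomide 5.71, 5.89 and 5.87. With pomalidomide and dexamethasone it was 5.52, 5.74 and 5.66, and in the triple combination 5.57, 5.65 and 5.85. Replicate 1 of pomalidomide alone and replicate 2 of filanesib and pomalidomide reached into the range of the 12 arrays without the drug, and the other 10 lay below it.

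The average SYK difference was -0.36 ± 0.07 (1.29-fold lower, the 144th largest fall). It was -0.40, -0.27, -0.35 and -0.42 beside no other drug, dexamethasone, filanesib and both, with an SE of 0.144, and 3 of the 4 backgrounds were without overlap. Neighbours in the order of the 8 SYK group means, from 6.17 with filanesib to 5.64 with pomalidomide and dexamethasone, all overlapped in range.

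CD200R1, the CD200 receptor, went against the description of a gene shifted by pomalidomide. Its log2 level was 6.85, 6.67 and 6.47 in controls. With filanesib it was 7.39, 7.22 and 7.24, with dexamethasone 7.04, 7.21 and 6.92, and with both 7.25, 7.12 and 7.40. All 9 of these arrays were above the controls without any pomalidomide having been given. With pomalidomide alone the level was 7.78, 7.07 and 7.34, and with filanesib and pomalidomide 7.20, 7.14 and 7.39. With pomalidomide and dexamethasone it was 6.95, 7.38 and 7.39, and in the triple combination 7.12, 7.81 and 7.59. All 21 treated arrays exceeded the highest control, a pattern in 0.0739% of genes, and 0.0739% showed the reverse. The controls also entered the values by which the gene was chosen, and the pattern was picked after the values were seen. It is a description. The 7 treated groups, with means from 7.06 to 7.50, overlapped their neighbours in order, and the control group did not.

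For CD200R1 the pomalidomide difference was 0.74 beside no other drug, 0.18 beside dexamethasone, -0.04 beside filanesib and 0.25 beside both, with an SE of 0.174. The average, 0.28 ± 0.09 (1.22-fold), ranked 309 from the top, and the groups were without overlap in 1 background, that with no other drug. How common such a count is over all genes was not worked out. Against the same 3 control arrays, filanesib alone was 0.62 higher and dexamethasone alone 0.39 higher. The values against control share those 3 arrays, so they are not independent of each other.

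**Figure D2:**
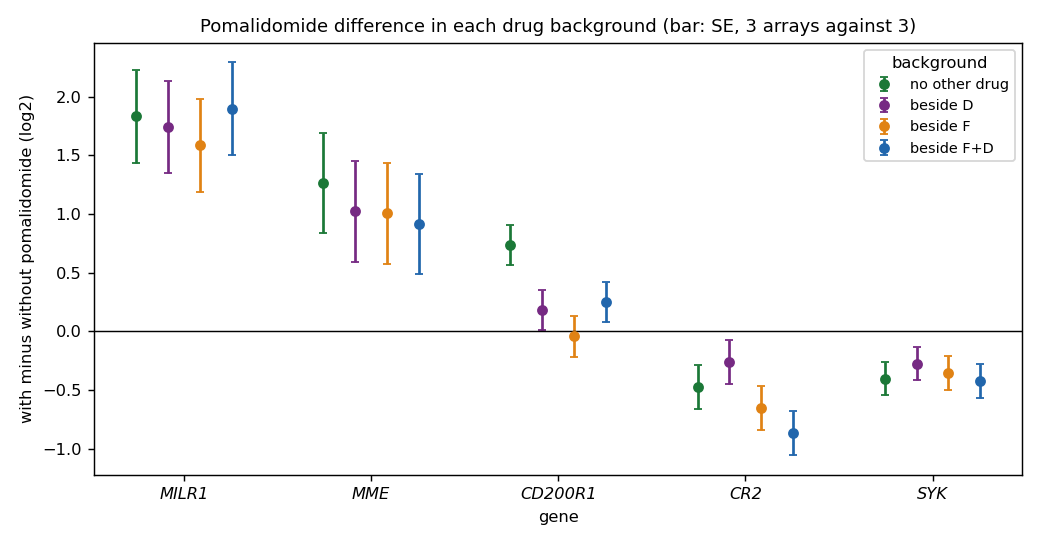
Difference in log2 level with minus without pomalidomide for each gene, in the 4 drug backgrounds (points; bars are limma standard errors of 3 arrays against 3; F filanesib, D dexamethasone). The 4 values are alike in sign for MILR1, MME, CR2 and SYK, whereas CD200R1 ranges from 0.74 with no other drug to -0.04 beside filanesib.

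The pomalidomide values kept their sign whichever single array was left out. The genes were chosen by these values in the same arrays, so this is a description and no support. Leaving out each of the 24 arrays in turn gave 1.65 to 1.92 for MILR1, 0.898 to 1.16 for MME, 0.234 to 0.33 for CD200R1, -0.616 to -0.495 for CR2 and -0.402 to -0.313 for SYK. Without replicates 1 and 3 of pomalidomide alone together, the values were 1.45, 0.877, 0.20, -0.54 and -0.34 in the same order.

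What the drug's average cannot show is how far arrays of the same group lay apart. The pooled SD within groups of MME was 0.84 with pomalidomide and 0.23 without it, a ratio of 3.62 that 0.43% of genes exceeded. For MILR1 the SDs were 0.75 and 0.29, a ratio of 2.6 that 2.73% of genes exceeded. Both genes thus varied more between like-treated arrays where they were higher. Without the drug their means were 4.38 for MME and 4.83 for MILR1, beside a median of 4.783 over the genes' mean levels. RMA compresses low values, and its part in these ratios was not tested. CD200R1 had a ratio of 1.96 (0.29 and 0.15, exceeded by 10.1% of genes), SYK 1.46 (0.21 and 0.14, exceeded by 28.5%) and CR2 1.31 (0.28 and 0.22, exceeded by 37.9%). Over all genes tested the median ratio was 1.16.

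MILR1 and MME also varied together. Pearson's r of their log2 levels was 0.89 over the 24 arrays, which share the pomalidomide difference, and 0.80 over the arrays' deviations from their own group means, from which it is removed. It was 0.84 over the 12 deviations with pomalidomide and 0.43 over the 12 without. In the group with pomalidomide alone, replicate 2 lay 1.26 below the group mean for MILR1 and 0.69 below it for MME. In the triple combination, replicate 3 lay 0.63 below for MILR1 and 0.89 below for MME. In both of these arrays the 2 genes were low together. Replicate 1 lay above its group mean for both genes in every pomalidomide group, so same-numbered arrays contribute to these correlations.

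CR2 ran opposite to MME: r was -0.72 over the 24 arrays, -0.61 over all deviations and -0.75 over the 12 deviations with pomalidomide, but -0.20 over the 12 without. Replicate 1 of pomalidomide and dexamethasone was 1.22 above its group mean for MME and 0.54 below it for CR2. SYK deviated less closely with the others, at -0.44 with MILR1, -0.27 with MME and 0.21 with CR2 over all deviations. Its r with MME was -0.42 over the 12 deviations with pomalidomide and 0.45 over the 12 without. For CD200R1 the deviation correlations with the other 4 genes lay between -0.26 and 0.30. All these are descriptions over arrays that share hybridisation and treatment, and none was tested.

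**Figure D3:**
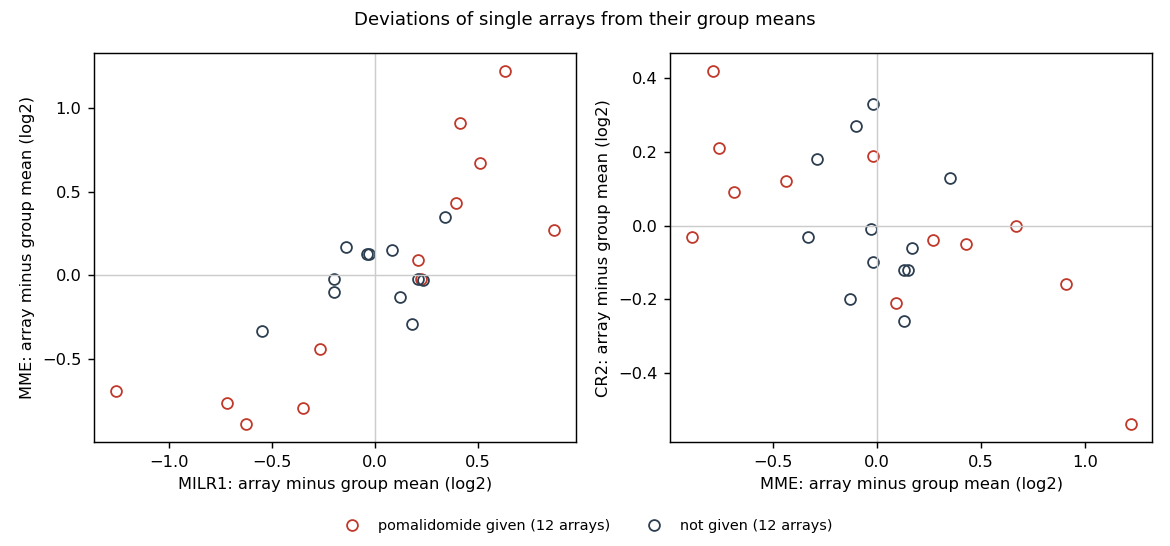
Deviation of each array from its group mean (log2), MME against MILR1 on the left and CR2 against MME on the right; red circles are the 12 arrays with pomalidomide and dark circles the 12 without. MME follows MILR1 (r = 0.80 over 24 arrays) and CR2 runs against MME (r = -0.61), with the widest scatter in the red circles.

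Among all other genes, those with log2 levels most like MILR1 over the 24 arrays were RSPH4A (r = 0.96), a radial spoke protein of motile cilia, TCN2 (r = 0.93), the vitamin B12 carrier transcobalamin, and CD68 (r = 0.92), a lysosomal membrane protein. For MME they were C1orf21 (r = 0.93), STING1 (r = 0.92), the adaptor of cytosolic DNA sensing, and TMEM219 (r = 0.90). For CR2 they were TOP6BL (r = 0.87), a protein of meiotic break formation, GALNT6 (r = 0.86), an enzyme of O-glycosylation, and AQP3 (r = 0.86), a water and glycerol channel. MSANTD3-TMEFF1 (r = 0.90), the exonuclease EXO1 (r = 0.88) and CSGALNACT2 (r = 0.88), an enzyme of chondroitin synthesis, were nearest to SYK. CD200R1 had more distant neighbours, UBA3 (r = 0.76), part of the NEDD8-activating enzyme, TDRD9 (r = 0.75) and PPA1 (r = 0.72), a pyrophosphatase. When deviations from group means were compared instead, a choice made after the values were seen, RSPH4A remained near MILR1 (r = 0.87), C1orf21 (r = 0.88) and STING1 (r = 0.87) near MME and AQP3 (r = 0.75) near CR2. The other places went to different genes, including all 3 near SYK (GMEB1, CDC42SE1 and KPNA3) and all 3 near CD200R1 (IL23R, LOC100134868 and KMO).

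Filanesib, dexamethasone and their combination could be tested for these genes, because those comparisons do not use the contrast of pomalidomide against its absence. The triple combination against pomalidomide plus dexamethasone does not use it either, since both groups hold the drug. It does contain part of the filanesib by pomalidomide interaction, whose values were known when the genes were picked. Its tests are therefore not fully apart from that choice. None of the 5 genes passed an adjusted p of 0.05 in any of these 4 comparisons (limma, Benjamini-Hochberg over 14884 genes). Over all genes, the average effect of filanesib was called in 1.4% (208), that of dexamethasone in 0.0134% (2), the filanesib by dexamethasone interaction in 0% and the difference of the triple combination from pomalidomide plus dexamethasone in 0.00672% (1). The interaction had 646 genes at an unadjusted p under 0.05. Named after their values were seen, the genes behind the small counts were CLU, the chaperone clusterin, which fell by 0.547 with dexamethasone, MIR876, which fell by 0.351, and BUB1, the spindle checkpoint kinase, which was 0.798 higher in the triple combination (limma adjusted p of 0.0357, 0.0408 and 0.0423). Leaving out 1 array at a time lost these calls in 13, 21 and 17 of 24 cases, with adjusted p up to 0.0924, 0.124 and 0.268. Against backgrounds this low, 0 of 5 says nothing about these genes as a group.

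For filanesib, CD200R1 gave the lowest p: it was 0.23 ± 0.09 higher on average (95% interval 0.0519 to 0.412, limma adjusted p = 0.2547). Under the alternatives that value ranged from 0.0735, without replicate 1 of pomalidomide alone, to 0.439. CD200R1 levels were 7.12 to 7.81 in the 12 filanesib arrays and 6.47 to 7.78 in the others, with wide overlap. The other 4 genes had filanesib differences of 0.12 ± 0.07 for SYK (interval -0.0327 to 0.266), -0.02 ± 0.09 for CR2 (-0.218 to 0.172), -0.10 ± 0.20 for MILR1 (-0.513 to 0.303) and -0.22 ± 0.21 for MME (-0.665 to 0.22), at limma adjusted p from 0.5658 to 0.9501. Intervals of this width do not show that filanesib left the genes as they were, least of all for MILR1 and MME.

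Dexamethasone gave average differences of -0.18 ± 0.20 for MILR1, -0.22 ± 0.21 for MME, 0.12 ± 0.09 for CD200R1, -0.08 ± 0.09 for CR2 and -0.10 ± 0.07 for SYK, with limma adjusted p from 0.7761 to 0.8806. The filanesib by dexamethasone interaction, the effect of filanesib beside dexamethasone minus its effect without, was -0.36 ± 0.19 for CR2 and between -0.0032 and 0.092 for the others, with a limma adjusted p of 0.9997 for each.

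The question named in the series title is what filanesib adds to pomalidomide and dexamethasone. CR2 had the lowest p of the 5 genes there: its level was 4.76, 5.11 and 4.89 in the triple combination and 4.88, 5.54 and 5.84 in the pair, so the ranges overlapped by 1 array. The difference was -0.51 ± 0.19 (interval -0.895 to -0.115, 1.42-fold lower), with an unadjusted p of 0.0134 that did not hold over all genes (limma adjusted p = 0.4825, from 0.1489 to 0.8805 under the alternatives). Its size depended on replicates 1 and 3 of the pair: without the former it was -0.777, and without the latter -0.294. The remaining differences were 0.26 ± 0.17 for CD200R1, -0.23 ± 0.43 for MME, 0.04 ± 0.14 for SYK and -0.01 ± 0.39 for MILR1, with limma adjusted p from 0.8088 to 0.9975.

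**Figure D4:**
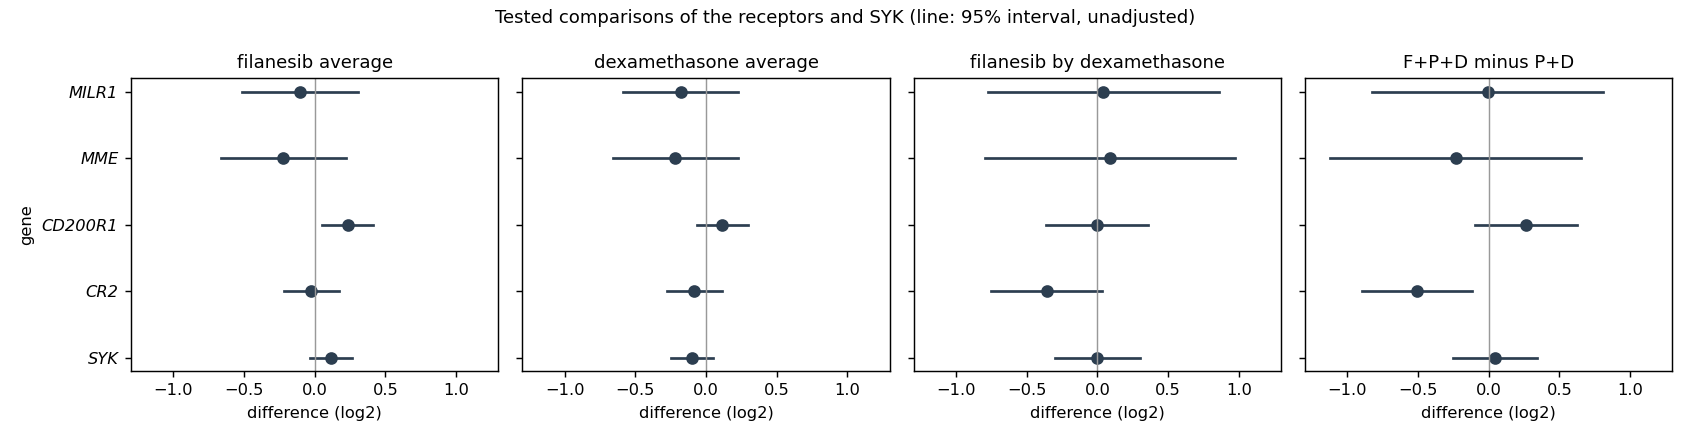
Differences in log2 level (points) with unadjusted 95% intervals (lines) for the comparisons that could be tested: filanesib average, dexamethasone average, their interaction, and the triple combination (F+P+D) minus pomalidomide plus dexamethasone (P+D). None passed the adjusted threshold, and the intervals of MILR1 and MME are the widest.

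Interactions that involve pomalidomide share values that were known when the genes were picked, and were therefore not tested for them. Filanesib by pomalidomide was -0.35 ± 0.17 for CD200R1, -0.39 ± 0.19 for CR2, -0.18 ± 0.43 for MME, -0.05 ± 0.14 for SYK and -0.05 ± 0.39 for MILR1. Pomalidomide by dexamethasone was between -0.167 and 0.11 for all 5.

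Genes that work with these 5 were then examined for the average effect of pomalidomide, which 4.86% of all genes (723) passed at an adjusted p of 0.05, 2.21% (329) higher and 2.65% (394) lower. Of 191 genes in 9 lists, 115 were measured under a single symbol, 12 rose and 3 fell, or 13% of those measured. Their median difference was -0.00162, next to -0.0062 over all genes tested. The lists were drawn up with earlier results of these arrays known, and no list was tested as a set.

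In B-cell receptor and SYK signalling, 2 of 12 measured genes rose, none fell, and the median was -0.0683. BLNK, the adaptor that SYK phosphorylates to relay the B-cell receptor signal, was at 7.79 to 8.60 with pomalidomide and at 7.45 to 7.72 without it, so its 12 arrays with the drug lay wholly above the other 12. It rose by 0.50 ± 0.08 (1.42-fold, limma adjusted p = 0.000381), by 0.454 to 0.523 in each background. LYN, the kinase upstream of SYK, rose by 0.32 ± 0.08 (adjusted p = 0.0162). BTK, the kinase that BLNK helps to activate, differed by -0.14 ± 0.08 (adjusted p = 0.373). BLNK and LYN thus rose while SYK itself was lower. They do not stand for the list, in which 3 of the 12 measured genes had a positive difference.

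None of 11 measured ITAM adaptors and partner receptors of SYK passed the test, with a median of 0.00783. LAT, the T-cell and mast cell adaptor, had the lowest p (-0.19 ± 0.07, limma adjusted p = 0.144). ZAP70, the paralogue of SYK, differed by -0.06 ± 0.06 and TYROBP, an ITAM adaptor of myeloid receptors, by -0.02 ± 0.08 (adjusted p of 0.671 and 0.936). The mean level of TYROBP, 4.09, was below the median of the genes' mean levels, 4.783.

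In the CR2 complex and complement receptor list, 1 of 8 measured genes rose and the median was 0.0815. That gene was IFITM1, a partner in the CR2 complex that is also an interferon-induced antiviral protein. Its level was 7.39 to 9.32 with pomalidomide and 6.46 to 7.40 without, and it rose by 1.28 ± 0.17 (2.43-fold, limma adjusted p = 6.17e-05). CD81, the tetraspanin of the complex, differed by 0.12 ± 0.08 (adjusted p = 0.481). Within the complex, then, IFITM1 was higher where CR2 was lower. CR1 and FCER2 were not analysed here.

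The CD200 axis with its DOK adaptors had 7 measured genes, of which 1 rose, with a median of -0.0189. CD200, the ligand of CD200R1, was at 3.48 to 4.28 with pomalidomide and 3.19 to 4.30 without, and differed by -0.04 ± 0.10 (limma adjusted p = 0.898). CD200R1L, the neighbouring paralogue, differed by 0.11 ± 0.06 (adjusted p = 0.337). Both were low on the array's scale, with mean levels of 3.74 for CD200 and 2.42 for CD200R1L. The median of the genes' mean levels was 4.783. At such levels these values do not show that the 2 genes were unchanged. CD47, the ligand of the inhibitory receptor SIRPA, rose by 0.21 ± 0.06 (adjusted p = 0.0444). That call was kept in 6 of 24 omissions of 1 array, those of filanesib 1, dexamethasone 2, pomalidomide 2 and 3, filanesib and pomalidomide 2 and the triple combination 3, and the adjusted p reached 0.0902 in the rest. It was also lost with every probe set tested and without pomalidomide 1 and 3 together, and the adjusted p reached 0.1731 over all other settings.

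Inhibitory receptors with ITIM motifs, the class of MILR1, had 3 of 20 measured genes higher and 1 lower, with a median of 0.0142. CEACAM1, an adhesion receptor, rose by 0.68 ± 0.08 (1.6-fold, limma adjusted p = 1.82e-05), from 5.78 to 6.39 without the drug to 6.38 to 7.19 with it. CD300A, an inhibitory receptor of myeloid and lymphoid cells, rose by 0.58 ± 0.15 (adjusted p = 0.0277), and FCRL2, an Fc receptor-like protein of B cells, by 0.27 ± 0.07 (adjusted p = 0.0276). TIGIT, a receptor of T and NK cells whose level of 3.04 to 3.85 was low on the array's scale, fell by 0.251 (adjusted p = 0.0353). CEACAM1 was called in all 24 omissions of 1 array. CD300A was not without filanesib 3, filanesib and pomalidomide 1, pomalidomide and dexamethasone 1 or the triple combination 2 (adjusted p up to 0.0618), nor with every probe set tested or without pomalidomide 1 and 3 together (up to 0.1483). FCRL2 was not without control 1, filanesib 3, filanesib and dexamethasone 3, filanesib and pomalidomide 3 or pomalidomide and dexamethasone 1 (up to 0.0601), nor with every probe set tested (0.0547). TIGIT was lost in 12 omissions, those of control 1 and 2, filanesib 2 and 3, dexamethasone 2 and 3, filanesib and dexamethasone 1, filanesib and pomalidomide 1 and 3, pomalidomide and dexamethasone 1 and 2 and the triple combination 1 (up to 0.0716). It was also lost with arrays centred on their medians, with every probe set tested and without pomalidomide 1 and 3 together (up to 0.0722).

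None of 11 measured surface peptidases related to MME passed (median 0.0192). MMEL1, its closest relative, differed by -0.05 ± 0.08 (limma adjusted p = 0.825). ANPEP, the aminopeptidase CD13, had the lowest p at 0.23 ± 0.10 (adjusted p = 0.215). Its mean level, 3.97, was below the median of the genes' mean levels, 4.783.

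Of 19 measured B-lineage genes, 2 rose and none fell with pomalidomide, with a median of -0.0379. VPREB1, part of the surrogate light chain of precursor B cells, rose by 0.33 ± 0.07 (limma adjusted p = 0.0077). BCL6, the repressor of germinal centre B cells, rose by 0.31 ± 0.08 (adjusted p = 0.0303), by 0.713 beside filanesib and 0.00473 beside dexamethasone. Its call was lost without control 1, dexamethasone 1, filanesib and dexamethasone 3, filanesib and pomalidomide 3 or the triple combination 2 (adjusted p up to 0.064), and with every probe set tested or without pomalidomide 1 and 3 together (up to 0.0658). With filanesib, 1 gene of this list changed: the tetraspanin CD9 fell by 0.272 (limma adjusted p = 0.0195, at most 0.0476 with any 1 array left out).

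None of 15 measured myeloid and mast cell genes passed the test, with a median of -0.0111, and the lowest p belonged to SPI1, the transcription factor PU.1 (-0.10 ± 0.05, limma adjusted p = 0.384). The mean over 4 of 7 mast cell and basophil markers was 3.26 to 3.79 with pomalidomide and 3.33 to 3.74 without. That over 6 of 12 macrophage markers was 3.32 to 3.57 and 3.24 to 3.60. None of the measured markers in either list passed the test. Both lists were measured only in part, with means low on the array's scale, and the source of the MILR1 difference was not tested. CD68, a macrophage marker outside that list, rose by 0.995 ± 0.0895 (limma adjusted p = 4.31e-07), and its part in the MILR1 result was not tested. Plasma cell markers averaged 9.92 to 10.22 with the drug and 10.05 to 10.28 without, with CD38 up by 0.18 ± 0.05 (limma adjusted p = 0.0304) and IRF4 down. The CD38 call was lost in 8 of 24 omissions, those of control 2, filanesib 3, dexamethasone 1 and 3, filanesib and dexamethasone 3, filanesib and pomalidomide 1, pomalidomide and dexamethasone 3 and the triple combination 1 (adjusted p up to 0.0611).

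Transcription factors and regulators linked to cereblon and interferon signalling changed in both directions, with 3 of 14 measured genes higher, 2 lower and a median of 0.0862. IRF9, the DNA-binding subunit of the interferon-activated complex, rose by 0.50 ± 0.08 (limma adjusted p = 5e-04) and IRF7, a driver of interferon genes, by 0.55 ± 0.11 (adjusted p = 0.00259). IRF4, a factor on which plasma cells depend, fell by 0.539 (1.45-fold lower, adjusted p = 0.00557) and ETS1, a lymphoid factor, by 0.388 (adjusted p = 0.00236). CRBN, the cereblon gene, rose by 0.20 ± 0.06 (adjusted p = 0.0457), a value made up of 0.596 beside no other drug and -0.015 to 0.177 in the other backgrounds. The CRBN call was kept in 6 of 24 omissions, those of control 2, filanesib 2, dexamethasone 3, pomalidomide 2 and 3 and pomalidomide and dexamethasone 2, and the adjusted p reached 0.0979 in the rest. It was also lost with a trended and robust variance prior, with every probe set tested and without pomalidomide 1 and 3 together, and the adjusted p reached 0.1499 over all other settings.

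**Figure D5:**
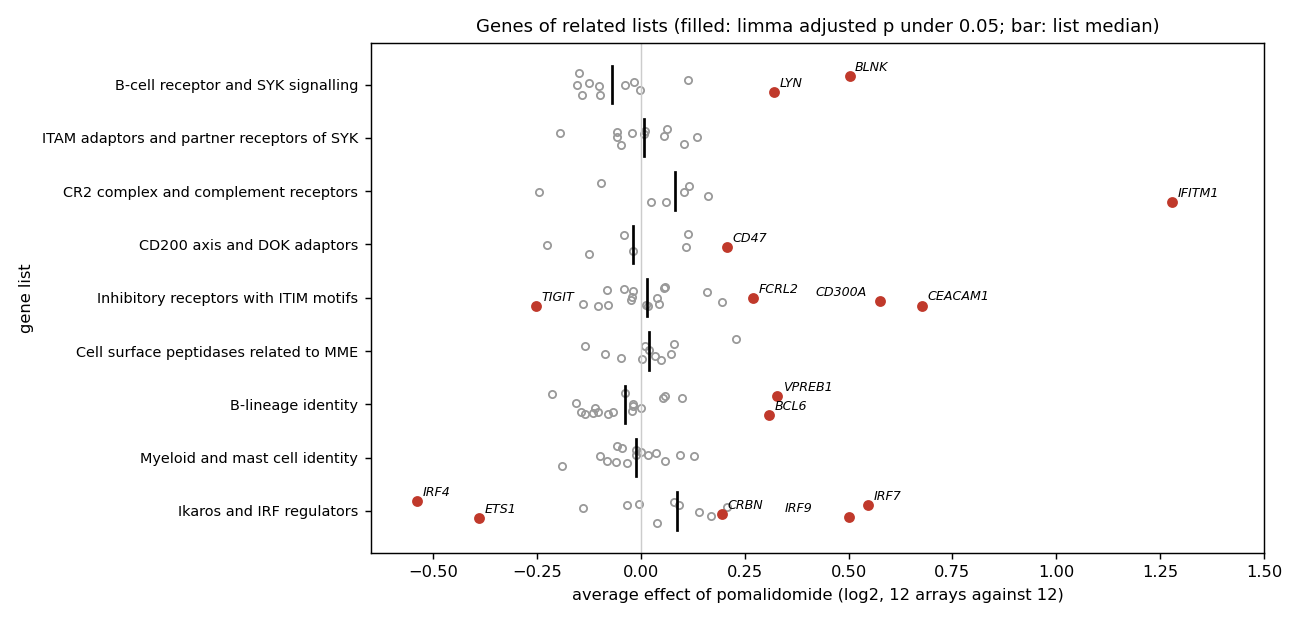
Average effect of pomalidomide (log2, 12 arrays against 12) on the measured genes of 9 related lists; filled red circles passed a limma adjusted p of 0.05, open circles did not, black bars are list medians, and vertical scatter within a list carries no value. Medians lie between -0.0683 and 0.0862, and IFITM1, CEACAM1, CD300A, IRF7, BLNK and IRF9 lie farthest to the right.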

How the data were processed

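According to the submitters' processing notes, the authors made the deposited log2 values of the 24 arrays with RMA and Affymetrix Expression Console; versions and genome build are not given in the sources used here. RMA corrects background, normalizes by quantiles and summarises probes, so low values are compressed. Of 53617 probe sets, the platform annotation named 16098 by 1 symbol and 37519 by none. For 779 genes with several, the one with the highest mean was kept, leaving 14884 genes. In R 4.3.3, limma 3.58.1 fitted 1 mean per group (16 residual degrees of freedom) with Benjamini-Hochberg adjustment over all genes, at 0.05. The code was tested on simulated data. Fold is 2 to the power of a log2 difference. Precision is limited by how many arrays there are, with a median SE of 0.142 between a pair of groups and 0.071 for an average effect.

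The genes and lists were chosen with earlier results of these data known. Interactions with pomalidomide were planned as tests and are given for the members as descriptions. Named beside the members were the genes of each list past the threshold (up to 6 for pomalidomide, 3 otherwise) or else the one with the smallest p, set partners of the members, and the 3 genes nearest to each member. Alternatives were a further normalization, array centring, leaving out dim genes, array weights, another variance prior, a replicate block, other probe set rules and leaving out arrays. Sequences were not used here.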

Additional observations from a re-analysis of the deposited data

How the results depend on the processing

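All 180 alternative pomalidomide values of the 5 genes kept their sign, which is a description, since the genes were chosen by these values. For the other comparisons, 0 of 665 alternative tests of the 5 genes passed the threshold. The counts over all genes moved more. For dexamethasone (2 genes) they were 1 after further quantile normalization, 1 with dim genes left out, 6 with array weights, 0 with every probe set tested, 0 without pomalidomide replicates 1 and 3, and 0 to 2 when single arrays were left out. For the triple combination against the pair (1 gene) they were 0 with arrays centred on their medians, 8 with dim genes left out, 82 with array weights, 2 with every probe set, 17 without pomalidomide replicates 1 and 3, and 0 to 17 without single arrays. Pomalidomide (723 genes) gave 1210 with array weights and 1100 with every probe set, and 512 to 879 without single arrays. Filanesib (208 genes) gave 330 with weights, 128 with every probe set and 130 to 318 without single arrays. From 0 genes, filanesib by pomalidomide gave 1 with weights, pomalidomide by dexamethasone 0 to 2 and filanesib by dexamethasone 0 to 1 without single arrays. The cause of these moves was not tested. Tested differences near 0 changed sign. Further quantile normalization gave a filanesib by dexamethasone value of 0.0237 for CD200R1 and -0.00513 for SYK, and centring gave 0.00664 for CD200R1 and a triple value of 0.0189 for MILR1. Array weights gave MILR1 0.128 with filanesib, -0.145 for filanesib by dexamethasone and 0.206 for the triple combination, SYK -0.00321 for filanesib by dexamethasone and MME 0.157 for the triple combination. Without pomalidomide replicates 1 and 3, MILR1 was 0.21 with filanesib, 0.134 with dexamethasone and -0.589 for filanesib by dexamethasone, and MME -0.254 for the last. Leaving out single arrays gave filanesib values of -0.262 to 0.00398 for MILR1 and -0.0912 to 0.0294 for CR2. It gave filanesib by dexamethasone values of -0.176 to 0.356 for MILR1, -0.0996 to 0.0937 for CD200R1, -0.136 to 0.398 for MME and -0.0796 to 0.0995 for SYK. Triple values ran from -0.213 to 0.31 for MILR1, from -0.687 to 0.381 for MME and from -0.0356 to 0.104 for SYK. None of these passed the threshold before or after.

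The titles give all groups the same replicate numbers. Over all genes these numbers did not pair the arrays. Same-numbered arrays had a median correlation of deviations of -0.0245 over 84 pairs (17 over 0.1). Other arrays had 0.00529 over 168 pairs (41 over 0.1). A median over all genes cannot show whether single genes such as MME were paired by number within the pomalidomide groups. That was not tested. With the number as a replicate block the called genes were 670 for pomalidomide, 175 for filanesib, 0 for dexamethasone, 0 for the triple combination and 1 for pomalidomide by dexamethasone, and no gene of the 5 passed a test. Of the list genes called for pomalidomide, CD47 and CRBN lost their call under the block. A planned motif search on both strands of promoters was not run, since the reference promoters at hand were of the mouse and the probes are human. The values of arrays numbered 1, 2 or 3 alone were added after seeing the data.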
